A study of Mus musculus with 4 samples.

Results

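The genes described here are 10 protein-coding genes of the mouse mitochondrial genome that encode subunits of the respiratory chain: ND1, ND2, ND3, ND4, ND4L, ND5 and ND6 of complex I, CYTB of complex III, and COX1 and COX3 of complex IV. Each is represented by the probe set whose single gene symbol in the platform annotation is the mitochondrial symbol, 1 probe set for each of the 10 genes, out of 22180 genes with a single symbol and 41345 probe sets in all. The group was chosen by the difference between the GSK-J4 array and the 3 control arrays, in which ND3 was among the genes farthest below the controls, so its values in that comparison are descriptions. The RefSeq table lists 13 protein-coding genes in the mitochondrial genome. The other 3, COX2, ATP6 and ATP8, occur only in 2 probe sets that carry several symbols, which are given separately.

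R1 mouse embryonic stem cells, freed of feeder cells, were differentiated as embryoid bodies (floating aggregates) for 18 h after withdrawal of LIF, the cytokine that holds them in self-renewal. The medium held 1.88 µM GSK-J4, 1.88 µM GSK-J5, DMSO, or nothing further (EB medium), and each treatment has 1 array. GSK-J4 is a cell-permeable ester prodrug of an inhibitor of the KDM6 histone H3 lysine demethylases. GSK-J5 is the ester of a pyridine regioisomer with little activity on those enzymes and was labelled as a vehicle compound, DMSO is the solvent, and none of the groups carries a genetic change. Levels are log2 values made by the authors with RMA, which gives every array nearly the same distribution of values. The log base was inferred from the range of values, so every fold rests on base 2.

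With 1 array for each treatment there is no spread within a treatment and no test of any difference, and no p-value is given. What can be compared is the GSK-J4 array with the range of the 3 controls (GSK-J5, DMSO and EB medium), which differ from each other in treatment as well as in preparation. The distance of GSK-J4 beyond the nearest control is called the margin, negative when GSK-J4 lies below. Over the 41345 probe sets the median level was 6.64 in GSK-J4, 6.64 in GSK-J5, 6.65 in DMSO and 6.63 in EB medium. A filter at the 40th percentile of gene means, a level of 6.59, left 13308 genes for counts over all genes, and all 10 mitochondrial genes passed it.

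The mitochondrial genome is a small circle, transcribed from both strands as long precursors that are cut into separate RNAs, often where tRNA sequences punctuate the messenger RNAs. Its proteins form the membrane cores of complexes I, III and IV and of the ATP synthase. Complex I takes electrons from NADH, complex III passes them from ubiquinol to cytochrome c, and complex IV hands them to oxygen; complex II is made of nuclear-encoded subunits alone. ND6 is encoded on the opposite strand to the other genes described here, and ND4L and ND4 lie on a shared messenger RNA. These abundant transcripts can also vary with the number of mitochondria per cell, which RNA arrays do not measure.

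Transcripts of 9 of the 10 genes read lower in GSK-J4 than in all 3 controls, ND3 far more than the rest, and ND6 lay within the controls. Over all genes passing the filter 35.5% lay below all 3 controls and 0.842% did so by 1.5-fold (0.585 on the log2 scale). Among the mitochondrial genes 1 of 10, ND3, reached 1.5-fold, and 0 of 10 lay above all controls. Between GSK-J4 and GSK-J5 the median difference over the 10 genes was −0.24 on the log2 scale, beside 0.00 over all genes passing the filter. It was −0.22 against DMSO and −0.28 against EB medium. The same median between GSK-J5 and DMSO was 0.03. These 3 comparisons of GSK-J4 share its single array, so their likeness adds no replication. The 10 genes share that array too, and all but ND6 come from precursors of the same strand, so they are not separate observations.

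**Figure D1:**
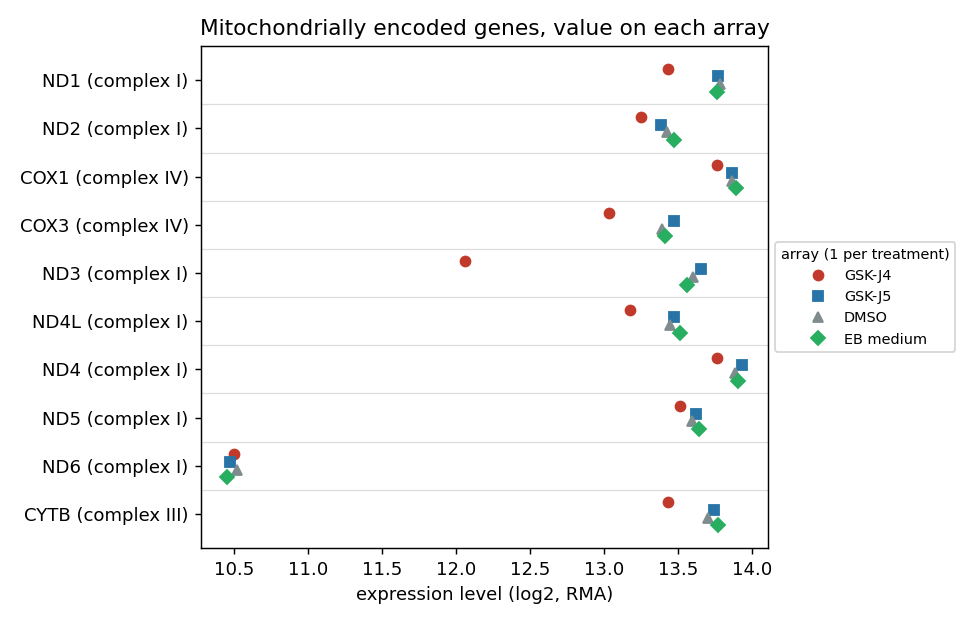
The log2 level (RMA, horizontal axis) of each gene, listed in the order of the mitochondrial genome, with 1 point for each array. The GSK-J4 point lies left of all 3 controls in 9 genes, by the greatest distance in ND3 (12.06 against 13.56 to 13.65), and inside them in ND6.

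ND3, a core membrane subunit of complex I with a loop near the site where quinone binds, read 12.06 in GSK-J4, against 13.65 in GSK-J5, 13.60 in DMSO and 13.56 in EB medium (probe set 17532621). The 3 controls lay within 0.09 of each other, and the margin of −1.50 was 16.7 times that range. On a linear scale the GSK-J4 level was 33.2% of the GSK-J5 level. By margin ND3 ranked as number 4 from the bottom among the 13308 genes.

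ND1, a core subunit of the membrane arm next to the quinone site, read 13.43 in GSK-J4, against 13.77 in GSK-J5, 13.78 in DMSO and 13.76 in EB medium (probe set 17532603). ND2, of the proton-pumping membrane arm, read 13.25 in GSK-J4, against 13.38, 13.42 and 13.47 in GSK-J5, DMSO and EB medium (probe set 17532607). GSK-J4 overlapped the controls in neither gene. The margin of ND1 (−0.33) was 16.5 times the range of its controls and that of ND2 (−0.13) was 1.44 times. The ND1 controls spanned only 0.02, with values given to 2 decimals, so its ratio is unstable and does not measure replicate error. ND4L read 13.17 in GSK-J4, against 13.47 in GSK-J5, 13.44 in DMSO and 13.51 in EB medium (probe set 17221871). ND4 read 13.76 in GSK-J4, against 13.93 in GSK-J5, 13.88 in DMSO and 13.90 in EB medium (probe set 17532625). Both encode subunits of the proton-pumping arm, and although they share a messenger RNA their probe sets differed in size, with GSK-J4 minus GSK-J5 differences of −0.30 for ND4L and −0.17 for ND4.

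ND5, at the far end of the proton-pumping arm, read 13.51 in GSK-J4, against 13.62 in GSK-J5, 13.59 in DMSO and 13.64 in EB medium (probe set 17532631). Its margin of −0.08 was the smallest of the 9 genes that lay below the controls, 1.6 times the range of those controls. ND6 read 10.50 in GSK-J4, against 10.47 in GSK-J5, 10.52 in DMSO and 10.45 in EB medium (probe set 17532649). GSK-J4 thus lay between DMSO and GSK-J5 in the gene that is transcribed from the other strand, and the sign of its difference depended on which control was used (0.03 against GSK-J5, −0.02 against DMSO, 0.05 against EB medium). ND5 and ND6 overlap at their ends in the table, as do ND4L and ND4, and where their probes lie was not examined. Over the 7 complex I genes the median difference from GSK-J5 was −0.17, and it was −0.15 over the 6 without ND3.

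CYTB, cytochrome b and the sole mitochondrially encoded subunit of complex III, read 13.43 in GSK-J4, against 13.74 in GSK-J5, 13.70 in DMSO and 13.77 in EB medium (probe set 17532633). Its margin of −0.27 equalled that of ND4L. In complex IV, COX3, a core subunit, read 13.03 in GSK-J4, against 13.47 in GSK-J5, 13.39 in DMSO and 13.41 in EB medium (probe set 17532617). COX1, the catalytic subunit that holds the oxygen-binding centre, read 13.76 in GSK-J4, against 13.86 in GSK-J5, 13.86 in DMSO and 13.89 in EB medium (probe set 17532609). No value of these 3 genes in GSK-J4 reached a control, and within complex IV the difference from GSK-J5 was −0.44 for COX3 and −0.10 for COX1. Complex I ran from −1.59 (ND3) to 0.03 (ND6), and the values of complexes III and IV lay inside that span. Without ND3 complex I ran from −0.34 to 0.03, and COX3 lay outside it. With 1 gene in complex III and 2 in complex IV, whether the complexes differ cannot be told.

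Along the mitochondrial genome the differences did not form a gradient. ND3 lies between COX3 and ND4L, and these neighbours had margins of −0.36 and −0.27, against −1.50 for ND3. Farther along, ND4 and ND5 had margins of −0.12 and −0.08, and CYTB, the last of the protein-coding genes in the table's order, −0.27. Near the start, ND1 had a margin of −0.33, and ND2 and COX1, which follow it, had −0.13 and −0.10. Around the 1.5-fold rule ND3 was the sole gene inside it, with COX3 (−0.36) and ND1 (−0.33) the nearest outside.

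**Figure D2:**
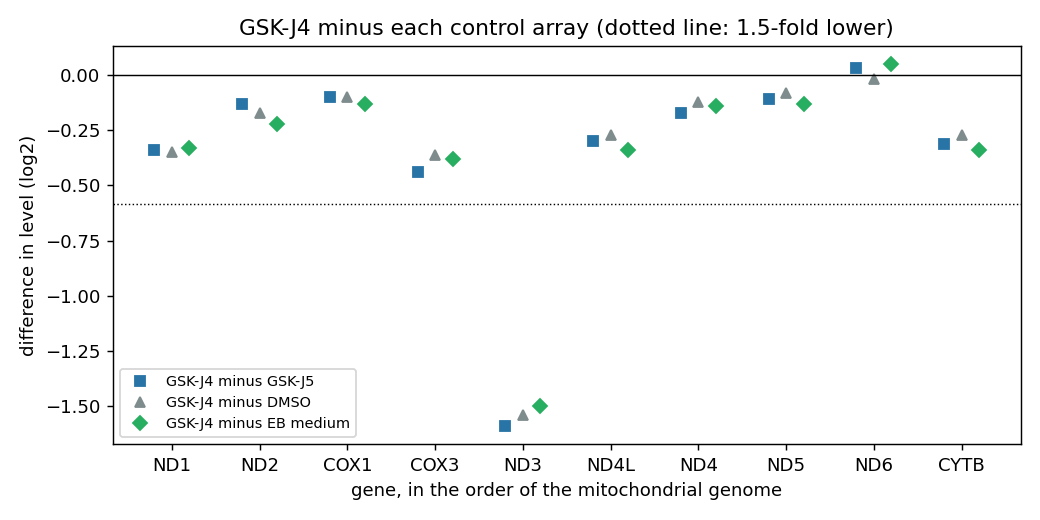
GSK-J4 minus each of the 3 control arrays (log2, vertical axis) for the 10 genes in the order of the mitochondrial genome, with a dotted line at 1.5-fold lower. ND3 lies at −1.59 to −1.50, the other 8 genes below the controls at −0.44 to −0.08, and ND6 on both sides of 0.

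The 2 probe sets with several symbols read in the same direction. The probe set listed under ATP6, ATP8 and Gm10925 read 13.30 in GSK-J4, against 13.55 in GSK-J5, 13.56 in DMSO and 13.58 in EB medium. ATP6 and ATP8 encode subunits of the membrane part of the ATP synthase, and the value cannot be given to a single gene. The probe set listed under COX2, a complex IV subunit, and the nuclear gene Prf1 (perforin) read 12.84 in GSK-J4, against 13.24 in GSK-J5, 13.23 in DMSO and 13.30 in EB medium. No further probe set with a single symbol belonged to a mitochondrially encoded gene of the table.

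Among the controls the 10 genes varied little. Their control values spanned at most 0.09 (median 0.07). With GSK-J5 in the place of GSK-J4, 0 of 10 genes lay below and 3 above the other 3 arrays, and with DMSO 0 lay below and 2 above. With EB medium in that place 1 lay below and 5 above. Those counts include GSK-J4 among the other arrays. As GSK-J4 was the lowest array in 9 genes, a control could be lowest only in ND6, and the counts above say only which control read highest. They therefore do not measure how much the controls vary. None of them held a gene past 1.5-fold, which the control span of at most 0.09 already implies. Set directly against DMSO, GSK-J5 differed by −0.05 (ND6) to 0.08 (COX3) across the 10 genes.

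GSK-J4 and GSK-J5 are matched in dose and time, and across this pair the structural change is the position of the pyridine nitrogen. Of the 10 genes compared in this single pair, 9 read lower in GSK-J4, with GSK-J4 minus GSK-J5 differences of −1.59 to −0.10 on the log2 scale, and ND6 read higher by 0.03. No error can be attached to these differences, and no adjusted p exists for them.

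All of the genes but ND6 had a mean log2 level of 13 or more, near the top of the array's scale; whether their probes were saturated was not examined. They were set beside the 341 other probe sets with a mean of 13 or more. Of these 33.4% lay below all 3 controls in GSK-J4 and 33.7% above, against 9 and 0 of the 9 mitochondrial genes. The 9 genes share 1 GSK-J4 array and precursors of the same strand, and the group was chosen by this comparison. They are therefore not 9 separate observations. None of the 341 was 1.5-fold below all controls (0%), and their median difference from GSK-J5 was 0.00, against −0.30 for the 9 genes. By margin 0 of the 341 lay as low as ND3, 6 as low as COX3, 7 as low as ND1, and 9 as low as CYTB and ND4L. The smaller margins were more common: 34 of the 341 lay as low as ND2, 37 as low as ND4, 45 as low as COX1 and 54, or 15.8%, as low as ND5. The 341 include the 2 probe sets with several symbols above, and 157 with no gene listed. Among those as low as COX3 were the probe set of COX2 and Prf1 (margin −0.39) and unlisted probe set 17532601 (−0.45). The identifier of the latter is close to that of ND1. Of the 138 with a single symbol 43.5% lay below all controls and 32.6% above, so lower values were somewhat more frequent among bright named genes than over the whole bright set.

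**Figure D3:**
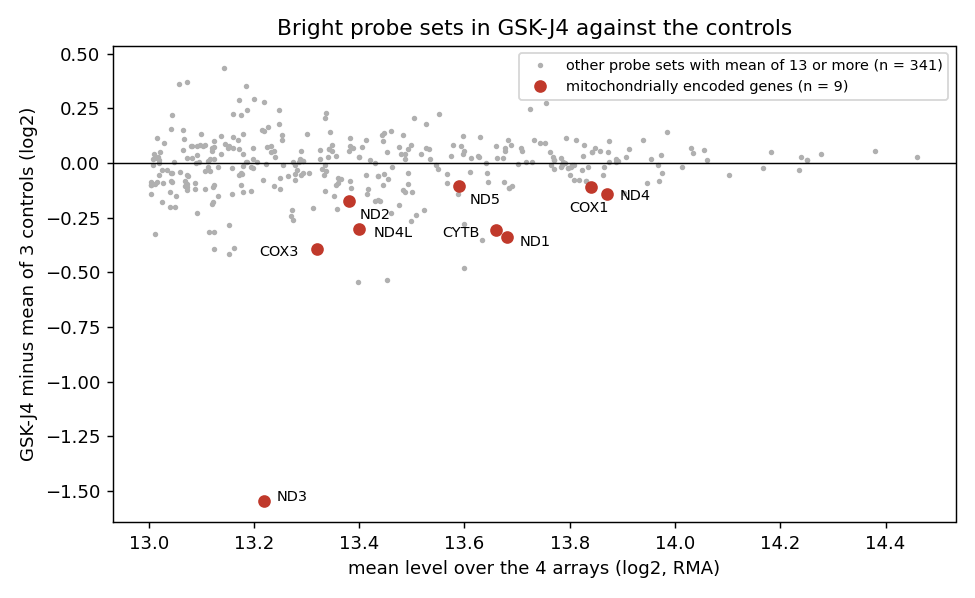
GSK-J4 minus the mean of the 3 controls (log2, vertical axis) against the mean level over the 4 arrays (log2, horizontal axis) for 341 other bright probe sets (grey) and the 9 mitochondrial genes at that level (red). ND3 lies at −1.54, apart from all other points, while ND2, ND4, ND5 and COX1 lie among the grey points.

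Bright nuclear genes gave smaller distances than ND3 in either direction. Among bright probe sets with a single symbol the lowest were H2ax, a histone H2A variant (margin −0.31), Ost4, an oligosaccharyltransferase subunit (−0.26), and Nt5dc2 (−0.21). The highest were Shmt2, the mitochondrial serine hydroxymethyltransferase (0.37), Chchd10, a mitochondrial intermembrane space protein (0.33), and Eif4ebp1, which encodes a translational repressor (0.27). The 22 bright probe sets of ribosomal protein genes had a median difference from GSK-J5 of 0.02, with margins from −0.03 to 0.10. The 10 control probe sets with Affymetrix control names and a mean of 11 or more read higher in GSK-J4 than in GSK-J5, and 9 of them lay above all controls, with a median difference of 0.08 from GSK-J5 and 0.19 from DMSO. Their sign was opposite to that of the mitochondrial genes, and their part in the result was not tested. For ND6, which is dimmer, the 2226 other genes within 0.5 of its mean level had a median difference of 0.01.

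Nuclear genes that serve the mitochondrial genome showed no drop of the size of ND3. Of 18 genes of mitochondrial DNA transcription and replication that passed the filter, 0 were 1.5-fold above all controls and 0 below, and of the 20 measured 10 lay above and 5 below by any amount. Over all genes passing the filter 2.21% were 1.5-fold above and 38% above by any amount, and 0.842% and 35.5% below. Polrmt, the mitochondrial RNA polymerase, read 10.07 in GSK-J4, against 10.15, 10.12 and 10.11 in GSK-J5, DMSO and EB medium, and Tfam, which packages mitochondrial DNA and activates its transcription, read 10.13 against 10.06, 10.25 and 10.09. Against GSK-J5 the highest was Tk2, the mitochondrial thymidine kinase (0.48), and the lowest Ssbp1, the mitochondrial single-stranded DNA binding protein (−0.22). The list's median was 0.05. Polrmt, Tfam and the further genes named with them below as chosen later were picked for their roles after the values were seen.

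Genes of mitochondrial RNA processing and stability had a median of −0.04, and all 21 measured passed the filter. By any amount 4 lay above and 10 below all controls, where 38% and 35.5% of all genes past the filter did so. By 1.5-fold 0 were counted, near the shares of 2.21% above and 0.842% below over all genes. Prorp, the protein-only ribonuclease that cuts the leading ends of mitochondrial tRNAs, read 11.08 in GSK-J4, against 11.39 in GSK-J5, 11.41 in DMSO and 11.36 in EB medium, and was the lowest of the list (−0.31). Elac2, which cuts the trailing ends of tRNAs and was chosen later, read 10.88 in GSK-J4, against 11.15, 11.09 and 11.12 in GSK-J5, DMSO and EB medium. Trmu, an enzyme that thiolates mitochondrial tRNAs, was the highest (0.31), though its margin was 0.13. Lrpprc, which stabilises mitochondrial messenger RNAs and was also chosen later, read 11.53 in GSK-J4 and lay within its controls (11.57, 11.48 and 11.55).

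Among 13 mitochondrial translation factors 0 were counted and the median was 0.06, with Mtfmt, the formyltransferase of the initiator tRNA, at 0.33 and Tufm, the elongation factor, at −0.19. The 13 mitochondrial chaperones and proteases had a median of −0.02 and 0 counted, with Dnaja3 at 0.26 and Hspd1, the HSP60 chaperonin, at −0.14. The 8 regulators of mitochondrial biogenesis had a median of −0.05, with 0 counted among the 7 past the filter. Gabpb1 stood at 0.11 and the nuclear receptor gene Esrra at −0.35. In lists this short a count of 0 is near the shares over all genes, 2.21% above and 0.842% below by 1.5-fold.

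The nuclear-encoded partners of the same complexes and complex II had medians of −0.17 to −0.05, beside −0.24 for the 10 mitochondrial genes. Of 32 measured nuclear complex I genes 9 lay above and 11 below all controls, and 0 did so by 1.5-fold. Over all genes past the filter 38% lay above and 35.5% below, and by 1.5-fold 2.21% and 0.842%. The median difference of the nuclear complex I genes from GSK-J5 was −0.05, beside −0.17 for the 7 mitochondrial ones. Ndufb11 (0.50) and Ndufb7 (−0.31), both accessory subunits, were the extremes. In complex III Uqcrh, the hinge protein, was the single nuclear gene counted as lower: it read 8.84 in GSK-J4, against 9.61 in GSK-J5, 9.56 in DMSO and 9.63 in EB medium. The other 7 complex III genes did not reach 1.5-fold, and the median of the 8 was −0.08. The 9 nuclear complex IV genes had a median of −0.09, with Cox5b at 0.15 and Cox6b1 at −0.57, and the 15 measured genes of the ATP synthase a median of −0.14, with Atp5g2 at 0.10 and Atp5e at −0.44. Complex II, which has no mitochondrially encoded subunit, had a median of −0.17 over its 4 genes, from −0.37 for Sdhc to −0.04 for Sdha, the flavoprotein subunit. By any amount 0 of the 4 complex II genes lay above all controls and 3 below, and 0 of the 8 complex III genes above and 6 below. In complex IV 2 of 9 lay above and 5 below, and in the ATP synthase 1 of 15 above and 9 below. These counts stand beside 38% above and 35.5% below over all genes past the filter. Assembly factors, 29 measured, had a median of 0.04, with Ttc19 at 0.49 and Pet100 at −0.35.

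**Figure D4:**
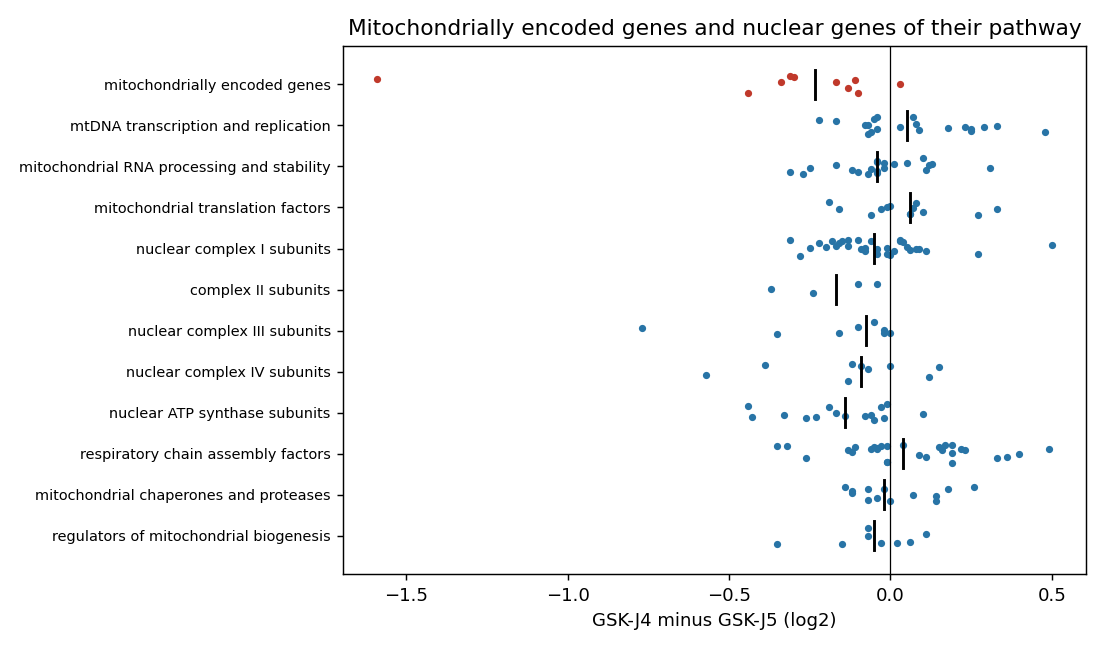
GSK-J4 minus GSK-J5 (log2, horizontal axis) for each of the mitochondrially encoded genes (red, top) and for the measured genes of 11 nuclear lists (blue), with a black bar at each median. ND3 (−1.59) lies left of every nuclear gene shown, of which Uqcrh (−0.77) is the lowest.

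Many genes shared the shape of the group's median profile, which lay at −0.27 in GSK-J4, 0.03 in GSK-J5, −0.02 in DMSO and −0.01 in EB medium relative to the mean of the 3 controls. The nearest over the 4 arrays were Tmem131l (root mean square distance 0.00354 on the log2 scale), Tox2 (0.00755), Mrps35 (0.00791), a mitochondrial ribosomal protein gene, and Depdc1a (0.00791). A distance of 0.05 or less was found for 647 of the 13298 other genes, so 4 arrays do not single out these 4.

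Markers of the labelled cells were present on all arrays. Sox2 and Nanog, transcription factors of pluripotent cells, read 13.02 and 13.05 in GSK-J4, and of 10 pluripotent markers measured 9 passed the filter. Of the 10, 6 lay below and 1 above all controls in GSK-J4, where 35.5% of all genes past the filter lay below and 38% above. Among the markers that passed, Esrrb (0.16) was the highest and Tdgf1 (−0.36) the lowest against GSK-J5. The summed linear level of these markers was 50210 in GSK-J4, and the controls ran from 53500 to 53890. Of 11 feeder fibroblast markers measured 7 passed the filter, and the summed level of the 11 was 1217 in GSK-J4, against 1306 to 1385. Of the 11, 7 lay below all controls in GSK-J4 (35.5% over all genes past the filter); these include Dcn and Lum, which lay under the filter level on every array, and not Thy1 and Loxl1, which passed. Among those that passed, Loxl1 (0.21) was the highest and Thbs1 (−0.48) the lowest against GSK-J5. Endoderm markers summed to 1194 in GSK-J4, against 1094 to 1173, with 5 of 8 past the filter. The higher sum was not shared by the list: of the 8, 4 lay above and 4 below all controls in GSK-J4. Among those that passed, Lama1 (0.43) was the highest and Foxa2 (−0.31) the lowest against GSK-J5. Lama1 read 8.37 in GSK-J4, against 7.73 to 7.97. Of 3 blood markers measured only Laptm5 passed the filter (8.45 in GSK-J4 against 6.92 to 7.16). Ptprc, which defines blood cells, lay under the filter level and within its controls in GSK-J4. Tyrobp, also under that level, went the other way (6.04 in GSK-J4 against 6.27 to 6.54). The 3 summed to 438 in GSK-J4, against 219.1 to 250.5, and Laptm5 alone of them lay above all controls. Sox2, Nanog, Dcn, Lum, Thy1, Ptprc and Tyrobp were named after their values were seen. The part of any shift in cell types in the mitochondrial values was not tested, and fewer cells of a type cannot be told apart from less RNA per cell.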

How the data were processed

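Total RNA of dissociated embryoid bodies was amplified, biotin-labelled and hybridised to Affymetrix arrays, 1 for each of 4 treatments. Per the submitters' processing notes, the authors used Affymetrix Expression Console, version 1.2.1.20, and RMA to make the deposited log2 levels. The log base was inferred from the values (2.20 to 14.48), and no source used here gives the genome build. Scanner files and probe sequences were not used here, so detection above background, saturation and matches to nuclear copies of mitochondrial DNA were not examined. The number of arrays limits the precision.

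Gene symbols come from the platform annotation, which can be old: of 41345, 23521 had a single symbol, 1814 several and 16010 none listed. RefSeq's GRCm38.p6 table gave which genes are mitochondrial and their order; no positions are printed. For genes with several probe sets the brightest was taken, and a filter at the 40th percentile of gene means left 13308 genes. The 190 control probe sets with Affymetrix names were kept out of the bright set, a choice made after seeing the data. Counting was checked on simulated data with planted changes far larger than 1.5-fold. That check covers the working of the count and not the small margins.

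Genes and lists were chosen with earlier results of these data known. Named genes are all members; up to 2 genes per direction of each list 1.5-fold outside the controls, otherwise its highest and lowest against GSK-J5; the 3 highest and 3 lowest bright genes by margin, unnamed transcripts passed over; and the 4 genes nearest in profile. Alternatives were median centring, repeated quantile normalization, loess (span 0.3), centring on bright probe sets, another control, leaving out each control, other folds, filters and limits, and the median over probe sets. Python 3.11.15, pandas 2.3.3 and statsmodels 0.14.6 were used.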

Additional observations from a re-analysis of the deposited data

How the results depend on the processing

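With 1 array for each treatment no alternative supplies replicate error. No paired analysis was possible because each treatment has a single array. The count of 9 of 10 genes below all controls and the 1.5-fold call of ND3 held under all 4 rescalings. Median centring and centring on bright probe sets could hardly have undone them. Array medians ran from 6.63 to 6.65 and bright medians from 13.35 to 13.37, while the smallest margin was −0.08 (ND5). Repeated quantile normalization acted on values that already had nearly the same distribution. The count and the call also held with the median over probe sets and when GSK-J5, DMSO or EB medium was left out. These last settings could not have undone them either. Each of the genes has 1 probe set, and leaving out a control cannot lower the lowest control. At a smaller fold, a margin of 0.322 on the log2 scale, 3 of the 10 genes (ND3, COX3 and ND1) were counted, beside 527 of the 13308 genes passing the filter. ND1, with a margin of −0.33, passed that limit only narrowly. The median difference over the 10 genes was −0.20 under loess, −0.28 against EB medium, −0.17 without ND3 and −0.30 without ND6, the last 2 chosen after seeing the data. Over the 7 scaling and reference alternatives ND3 ran from −1.60 to −1.50, and ND6 turned to −0.01 under repeated quantile normalization and −0.02 against DMSO; the cause was not tested. For the bright probe sets the median was 0.03 under loess, −0.02 at a limit of 12 and 0.03 at a limit of 14, and the number below all controls was 568 of 1421 (40%) at 12 and 3 of 15 (20%) at 14. Over all genes, those below all controls numbered 527 at the smaller fold and 14 at 2-fold, and those above 955 and 76, or 191 with the filter at the 60th percentile.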

Other observations

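Probe sets with no gene listed, and with identifiers at most 10 away from that of a mitochondrial gene, were examined after the values had been seen. There are 21, and no gene is given to them here, since the files do not pair them with one. In GSK-J4, 6 of them lay 1.5-fold or more below all 3 controls and 7 lay 1.5-fold or more above. Among the 5880 unlisted probe sets past the filter level 1.02% were that far below and 2.89% that far above; of the 21, 18 passed that level, with 6 below and 6 above. Probe set 17532593 read 7.26 in GSK-J4, against 10.07 in GSK-J5, 10.13 in DMSO and 9.96 in EB medium. Probe set 17532615 read 9.06 in GSK-J4, against 11.64 in GSK-J5, 11.58 in DMSO and 11.70 in EB medium. Both distances, with margins of −2.70 and −2.52, were greater than that of ND3. In the other direction, probe set 17532643 read 8.89 in GSK-J4, against 7.78 in GSK-J5, 7.67 in DMSO and 7.72 in EB medium, and probe set 17532629 read 7.63 in GSK-J4, against 6.53, 6.55 and 6.64 in GSK-J5, DMSO and EB medium. With any control array in the place of GSK-J4, and GSK-J4 among the others, 0 of the 21 lay 1.5-fold outside in either direction. That count could not be otherwise, as the controls of the 21 spanned at most 0.51, less than 1.5-fold (0.585).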
